A study of Homo sapiens with 4 samples.

Results

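The m6A genes described here encode the writers METTL3, METTL14, WTAP, VIRMA, ZC3H13 and RBM15, the readers YTHDC1 and YTHDF2, and the erasers ALKBH5 and FTO. Their exons were chosen by position: a skipped-exon event was taken when its middle exon shared a boundary with an exon of 1 of these 10 genes in GENCODE release 29 (hg38). This gave 34 events on 31 skipped exons in 8 genes, of 38121 skipped exons in the deposited files; WTAP and ALKBH5 were not analysed here. Total RNA was sequenced from cultures of MDA-LM2, a breast cancer cell line selected in mice for metastasis to the lung, all collected 48 h after transfection. The tested cells were transfected with siRNA against SNRPB2 (siSNRPB2, 2 libraries; 2 independent siRNAs with a knockdown above 95% by quantitative PCR, per the labels), and the controls with siControl (siCtrl, 2 libraries). No source used here says which siRNA each library received. Inclusion (ψ, the share of transcripts with the exon, from 0 to 1) comes as 1 value for each group at each event, without replicate values, so no spread between replicates can be set against the differences below.

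N6-methyladenosine (m6A) is the most common internal modification of mRNA. It is written in the nucleus by a complex with METTL3 as the catalytic subunit and METTL14 as its RNA-binding partner. WTAP, VIRMA, ZC3H13 and RBM15 anchor that complex and guide it to its sites. Reader proteins with a YTH domain bind the methylated base: YTHDC1 in the nucleus, where it affects splicing and export, and YTHDF2 in the cytoplasm, where it promotes decay of the mRNA. FTO and ALKBH5 are demethylases. SNRPB2 codes for U2B'', a component of the U2 particle of the spliceosome, which recognises the branch point ahead of the 3' splice site.

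Some of the exons described below are given here 5′ to 3′ on the strand of the gene, as GENCODE release 29 transcripts hold them (hg38); the called VIRMA exon is described by its position only. The first is the METTL14 exon with the higher ψ in siSNRPB2, at chr4:118686550-118686699 on the plus strand.
METTL14 150-nt exon: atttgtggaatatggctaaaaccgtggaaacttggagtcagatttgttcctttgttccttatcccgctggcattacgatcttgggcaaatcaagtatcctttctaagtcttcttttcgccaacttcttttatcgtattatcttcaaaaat
The second is METTL3 exon 4, at chr14:21501728-21501903 on the minus strand, which has competing 3' splice sites. Its first 79 bases, in capitals, are absent from the 97-nt form that starts at the inner site.
METTL3 176-nt exon: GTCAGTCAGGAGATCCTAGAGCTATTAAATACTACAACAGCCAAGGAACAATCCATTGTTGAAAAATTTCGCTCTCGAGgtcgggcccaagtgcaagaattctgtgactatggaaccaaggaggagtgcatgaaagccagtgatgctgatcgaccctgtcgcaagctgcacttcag
The next ones are METTL3 exon 6, at chr14:21500495-21500682 on the minus strand, with the codons of the catalytic DPPW motif in capitals, and METTL3 exon 9, at chr14:21499306-21499371 on the same strand.
METTL3 188-nt exon: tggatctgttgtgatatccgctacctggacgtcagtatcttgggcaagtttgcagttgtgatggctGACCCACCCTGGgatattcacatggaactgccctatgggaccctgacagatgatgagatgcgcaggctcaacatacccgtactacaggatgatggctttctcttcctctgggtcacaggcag
METTL3 66-nt exon: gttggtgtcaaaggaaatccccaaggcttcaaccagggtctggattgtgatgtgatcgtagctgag
FTO exons 4 (144 nt) and 8 (125 nt), at chr16:53844155-53844298 and chr16:53933985-53934109 on the plus strand, are shown because each was listed in 2 events that gave different answers.
FTO 144-nt exon: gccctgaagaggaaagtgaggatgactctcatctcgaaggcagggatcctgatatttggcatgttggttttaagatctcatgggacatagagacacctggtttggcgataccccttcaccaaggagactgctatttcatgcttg
FTO 125-nt exon: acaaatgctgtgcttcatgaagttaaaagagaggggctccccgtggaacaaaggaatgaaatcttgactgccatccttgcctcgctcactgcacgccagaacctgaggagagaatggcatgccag
The 25-nt exon of YTHDF2, at chr1:28737658-28737682 on the plus strand, is the shortest exon here that was kept in nearly all transcripts.
YTHDF2 25-nt exon: agaccaaaaggtcaaggaaacaaag

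The comparison asked which exons of these genes are spliced differently when SNRPB2 is depleted. MISO sorts the reads of an event by the isoforms they fit: only the isoform with the exon (inclusion-only), only the one without it (exclusion-only), either, or neither. The sum of inclusion-only and exclusion-only reads (informative reads) had to reach 20 in both files for an exon to count as tested. A tested exon was called when ψ differed by 0.1 or more and the authors' deposited table gave a Bayes factor, the evidence for a difference over none, of 10 or more. Of the 25 tested exons of the m6A genes, 2 were called higher in siSNRPB2, 1 in VIRMA and 1 in METTL14, and 0 were called lower. Over all 18682 tested exons of the series, 7.13% were called higher, 7.61% lower and 14.7% in either direction, so the share called among the m6A genes is not above what these files hold in general. In 5 further exons, 3 of METTL3 and 1 each of VIRMA and RBM15, ψ differed by 0.1 or more without a call. With the called ones this makes 7 of 25 (28%), close to the 25.8% of all tested exons that differed by as much. The median ψ difference was 0.00 both for the m6A genes and for all tested exons, and the median absolute difference was 0.01 and 0.03. The authors' ψ intervals of both groups lay apart in 2 of the 25 exons (8%), and in 20.8% of all tested exons.

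**Figure D1:**
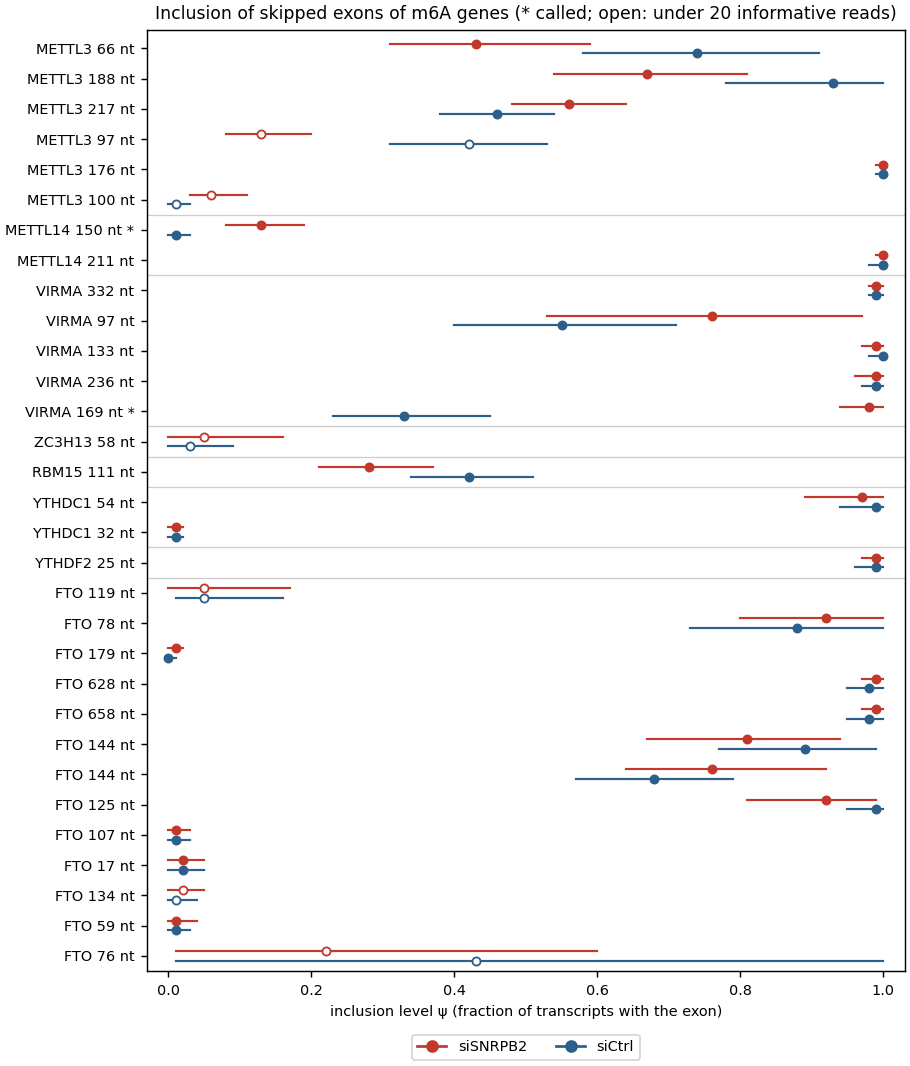
Inclusion level ψ of the 31 skipped exons of the m6A genes (horizontal axis, fraction of transcripts) in siSNRPB2 (upper, red) and siCtrl (lower, blue). Points are the authors' deposited values, lines their intervals, an asterisk marks a called exon and open points exons with under 20 informative reads in at least 1 file; the VIRMA exon of 169 nt stands at 0.98 in siSNRPB2 and 0.33 in siCtrl.

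In 9 of the 25 tested exons (36%) ψ was at least 0.95 in both files, against 30.1% of all tested exons. In 5 (20%) it was at most 0.05 in both, against 16.6% of all tested exons. All 18 exons that belong to the reference coding transcript of their gene were tested, against 7 of the 13 other exons, which GENCODE has in rarer transcripts or with other ends. In 7 of the 25 exons (28%) the length was a multiple of 3, against 41.8% of all tested exons. Skipping such an exon keeps the reading frame only where the exon is wholly coding, which neither count required. No read supported skipping alone in 18 of the 25 (72%), against 51.1% of all tested exons. For those 18 exons MISO had to derive ψ from the density of reads on the exon relative to its flanking exons. Over the series 11.4% of such exons were called in either direction, against 18.2% of exons with at least 1 exclusion-only read.

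**Figure D2:**
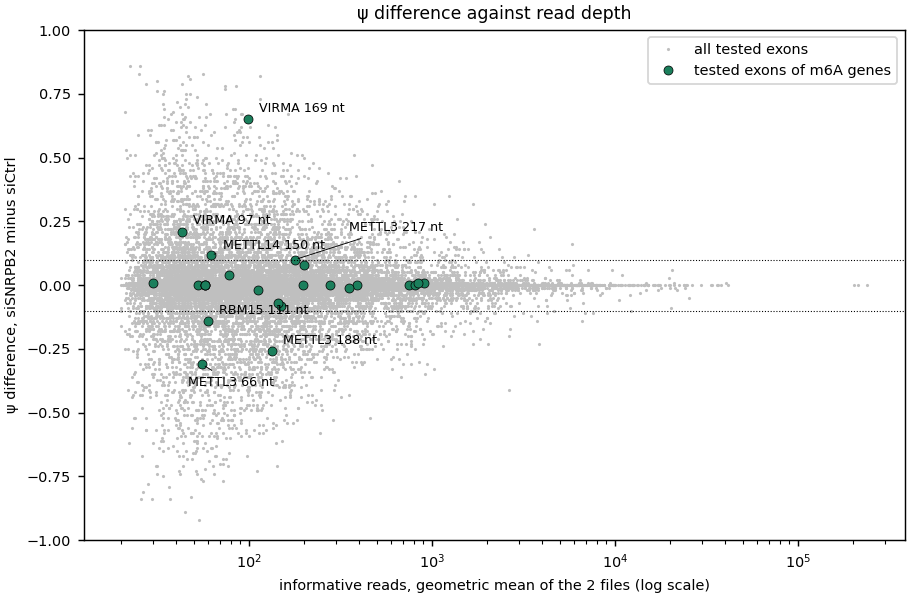
ψ difference, siSNRPB2 minus siCtrl (vertical axis), against the geometric mean of informative reads in the 2 files (horizontal axis, log scale). Grey points are all 18682 tested exons and green points the 25 tested exons of m6A genes; those that differ by 0.1 or more (dotted lines) are named, and the VIRMA exon of 169 nt, at 0.65, is the green point farthest from 0.

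METTL3, the catalytic subunit, had 6 listed exons, 4 of them tested, and 0 were called. Exon 9 of the reference transcript (66 nt, coding) had a ψ of 0.43 (authors' interval 0.31 to 0.59) in siSNRPB2 and 0.74 (0.58 to 0.91) in siCtrl. Exon 6 (188 nt, coding), which carries the catalytic motif printed above, had a ψ of 0.67 (0.54 to 0.81) in siSNRPB2 and 0.93 (0.78 to 1.00) in siCtrl. Both were lower in siSNRPB2 by more than the minimum, -0.31 and -0.26, but their Bayes factors in the authors' deposited table, 7.83 and 5.1, were under 10 and their intervals overlapped. Exon 9 had 40 inclusion-only reads in siSNRPB2 and 77 in siCtrl, and exon 6 had 123 and 147; neither had an exclusion-only read. Exon 5 (217 nt), in an event that joins exons 3 and 7, differed the other way, with a ψ of 0.56 (0.48 to 0.64) in siSNRPB2 and 0.46 (0.38 to 0.54) in siCtrl (Bayes factor 0.56, authors' deposited table). Both isoforms of that event leave out exons 4 and 6, and 1789 reads in siSNRPB2 and 2087 in siCtrl fitted neither. Its ψ is therefore not the share of all METTL3 transcripts that hold exon 5.

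METTL3 exon 4 can start at either of its competing 3' splice sites. The 176-nt form had a ψ of 1.00 in both files, with 694 inclusion-only reads in siSNRPB2 and 818 in siCtrl. The 97-nt form, which GENCODE has in 1 transcript of the nonsense-mediated decay type, had a ψ of 0.13 (0.08 to 0.20) in siSNRPB2 and 0.42 (0.31 to 0.53) in siCtrl. The intervals of the 97-nt form did not overlap, and the authors' deposited table gave a difference of -0.29 and a Bayes factor of 38548. It was not tested because it had 19 inclusion-only reads in siSNRPB2, 1 short of the minimum, against 53 in siCtrl. Scaled for depth, inclusion-only reads in the event of this form in siSNRPB2 were 0.405 times those in siCtrl. Both forms were set against the same reads of the flanking exons, 890 in siSNRPB2 and 776 in siCtrl, so their ψ values are not independent. The 97-nt form also lies wholly within the 176-nt form, so a read inside it can fit both. The 19 and 53 reads are therefore not shown to come from the inner 3' splice site. The last METTL3 exon (100 nt, non-coding), between exons 1 and 2, had 8 inclusion-only reads in siSNRPB2 and 0 in siCtrl, too few to test.

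METTL14 is the RNA-binding partner in the catalytic pair. Its 150-nt exon lies between the exon that holds the start codon and the next one of the reference transcript. GENCODE has it in 1 transcript, as coding sequence. It follows 66 coding bases, keeps the reading frame (150 is a multiple of 3) and holds 0 stop codons in that frame. ψ was 0.13 (0.08 to 0.19) in siSNRPB2 and 0.01 (0.00 to 0.03) in siCtrl, a difference of 0.12, and the authors' deposited table gave a Bayes factor of 1.74e+08. It is the called exon of the set with reads on the skipping junction. In siSNRPB2 22 reads were inclusion-only and 24 exclusion-only, and in siCtrl 0 and 83. The share of inclusion-only reads was thus 47.8% (exact 95% interval 32.9 to 63.1) in siSNRPB2, and 0% of 83 reads in siCtrl, where a count of 0 allows up to 3.61%. This share is not corrected for the longer stretch on which inclusion-only reads can fall, so it is not an estimate of ψ. Scaled for depth, by the compatible reads of 1 event per gene (16265847 in siSNRPB2 and 18384423 in siCtrl), inclusion-only reads were 8.29-fold higher in siSNRPB2, taking a floor of 3 reads in siCtrl. This takes the 22 reads in siSNRPB2 as exact, so a lower ratio is possible. Intervals and floors cover counting error only, since repeat reads of 1 molecule cannot be told apart here. Reads of the same event that fitted neither isoform numbered 222 in siSNRPB2 and 157 in siCtrl; their part in the result was not tested. The other tested METTL14 exon (211 nt, exon 10) had a ψ of 1.00 in both files, with 379 inclusion-only reads in siSNRPB2 and 405 in siCtrl.

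VIRMA is the large scaffold of the writer complex. Exon 5 of its 24-exon reference transcript (169 nt, coding, chromosome 8, 94534839 to 94535007) had the largest difference in the set. ψ was 0.98 (0.94 to 1.00) in siSNRPB2 and 0.33 (0.23 to 0.45) in siCtrl, and the Bayes factor, 1e+12, is the highest value that the authors' deposited table holds for any event. How many other events share this round value was not analysed here, so it does not rank this exon first. There were 195 inclusion-only reads in siSNRPB2 and 50 in siCtrl, while reads that fitted either isoform numbered 35 in siSNRPB2 and 114 in siCtrl. Inclusion-only reads per 100 such flanking reads were thus 557 in siSNRPB2 and 43.9 in siCtrl. Reads of this event that fitted neither isoform numbered 232 in siSNRPB2 and 309 in siCtrl, and their part in the result was not tested. No exclusion-only read was seen in either file, where a count of 0 allows up to 1.54% of informative reads in siSNRPB2 and 6.0% in siCtrl. A simple share of inclusion-only reads, being 100% in both files, shows no difference. The ψ values of this exon thus rest on the density of reads. No read supported skipping alone even in siCtrl, where ψ was 0.33.

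The other 4 tested VIRMA exons, all coding, give the spread within the gene. Exons 14, 17 and 22 had a ψ between 0.99 and 1.00 in both files. Exon 20 (97 nt) had 0.76 (0.53 to 0.97) in siSNRPB2 and 0.55 (0.40 to 0.71) in siCtrl, and its Bayes factor, from the authors' deposited table, was 1.02. Scaled in the same way, inclusion-only reads of exon 5 were 4.41-fold higher in siSNRPB2, at 12.0 RPM (reads scaled to those same compatible reads) in siSNRPB2 and 2.72 in siCtrl. The same ratio was 0.686 for exon 14, 0.946 for exon 17, 1.18 for exon 20 and 1.23 for exon 22. Exon 5 had the highest ratio of the 5 VIRMA exons, while the reads of its flanking exons were fewer in siSNRPB2 than in siCtrl. The exons of other protein-coding genes with the most similar pair of ψ values, among 13615 with 50 or more informative reads in both files, were in MYO9B (0.98 in siSNRPB2 and 0.35 in siCtrl), NAV2 (0.96 and 0.34) and SALL4 (0.95 and 0.35). With 2 values per exon this likeness is a description only.

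**Figure D3:**
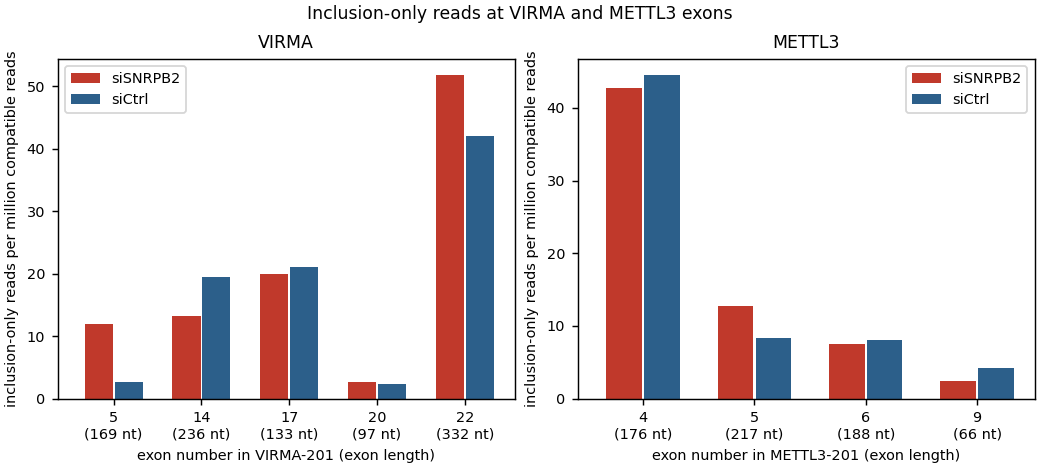
Inclusion-only reads in RPM of compatible reads (vertical axis) at the exons of the reference transcripts of VIRMA and METTL3 (horizontal axis, exon number and length), in siSNRPB2 (left bar, red) and siCtrl (right bar, blue). There is 1 value per group and no error bar; VIRMA exon 5 is at 12.0 in siSNRPB2 and 2.72 in siCtrl, the pair with the largest fold among the exons drawn.

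ZC3H13, which holds the writer complex in the nucleus, and RBM15, an RNA-binding protein that brings it to its targets, had 1 exon each. The ZC3H13 exon (58 nt, in an untranslated part of 1 transcript, chromosome 13, 46051932 to 46051989) had 0 inclusion-only reads in both files and 16 in siSNRPB2 and 22 in siCtrl that were exclusion-only, and was not tested. The RBM15 exon (111 nt, chromosome 1, 110345539 to 110345649) holds the last coding bases of the reference transcript and its stop codon. Its ψ was 0.28 (0.21 to 0.37) in siSNRPB2 and 0.42 (0.34 to 0.51) in siCtrl, with overlapping intervals; the authors' deposited table gave a Bayes factor of 1.52. In siSNRPB2 39 of its reads were inclusion-only and 0 exclusion-only, and in siCtrl 82 and 9. The share of inclusion-only reads thus went the other way from ψ, at 100% in siSNRPB2 and 90.1% (exact 95% interval 82.1 to 95.4) in siCtrl, and no direction can be given for this exon.

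The readers had no called exon. In YTHDC1, the nuclear reader, the coding exon 6 (54 nt, chromosome 4, 68332794 to 68332847) had a ψ of 0.97 (0.89 to 1.00) in siSNRPB2 and 0.99 (0.94 to 1.00) in siCtrl, with 78 and 163 inclusion-only reads. A 32-nt non-coding exon of YTHDC1 was skipped in both files, with a ψ of 0.01 in each; skipping alone was supported by 57 reads in siSNRPB2 and by 49 in siCtrl. In YTHDF2, the reader that directs mRNA to decay, the 25-nt coding exon had a ψ of 0.99 in both files, on 219 inclusion-only reads in siSNRPB2 and 178 in siCtrl. Its length is not a multiple of 3, so a transcript without it would change reading frame; 0 exclusion-only reads were seen in either file, which allows up to 1.37% of informative reads in siSNRPB2 and 1.69% in siCtrl.

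FTO, the demethylase, had the most exons in the set, 13 listed and 10 tested, with 0 called by the event with the most informative reads. On the FTO event with the most compatible reads, 58.6% of reads in siSNRPB2 and 51.6% in siCtrl fitted neither isoform. Exons 2 (78 nt), 3 (628 nt) and 6 (144 nt) of the reference transcript had ψ values of 0.92, 0.99 and 0.76 in siSNRPB2 and 0.88, 0.98 and 0.68 in siCtrl. The 5 tested FTO exons outside the reference transcript include a 658-nt form of exon 3 with another end, which had 0.99 in siSNRPB2 and 0.98 in siCtrl. The 628-nt and 658-nt forms overlap and were set against the same reads of the flanking exons, 84 in siSNRPB2 and 142 in siCtrl, so their ψ values are not independent. The 4 others, of 179, 107, 17 and 59 nt, were skipped in nearly all transcripts, with ψ between 0.01 and 0.02 in siSNRPB2 and between 0.00 and 0.02 in siCtrl. Those of 107, 17 and 59 nt lie in the intron ahead of the last exon and share the same reads across the skipping junction, 61 in siSNRPB2 and 55 in siCtrl. No inclusion-only read was seen in these 4 exons in either file. The remaining 3 FTO exons, of 119, 134 and 76 nt, had at most 1 informative read in either file and were not tested.

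FTO exons 4 and 8 were listed in 2 events each, and the answer depended on the event. For exon 4 (144 nt) with the annotated 628-nt upstream exon, ψ was 0.81 (0.67 to 0.94) in siSNRPB2 and 0.89 (0.77 to 0.99) in siCtrl, and its Bayes factor, from the authors' deposited table, was 0.33. With the 658-nt form upstream it was 0.34 (0.25 to 0.45) in siSNRPB2 and 0.63 (0.51 to 0.75) in siCtrl, with a Bayes factor of 412.16 there. For exon 8 (125 nt) with the last exon downstream, ψ was 0.92 (0.81 to 0.99) in siSNRPB2 and 0.99 (0.95 to 1.00) in siCtrl, and its Bayes factor, from the authors' deposited table, was 0.19. With the rare 107-nt exon downstream it was 0.28 (0.20 to 0.36) in siSNRPB2 and 0.62 (0.50 to 0.75) in siCtrl, where the Bayes factor was 755.56. The 107-nt exon itself had no inclusion-only read in either file. In this event 1418 reads in siSNRPB2 and 1199 in siCtrl fitted neither isoform, and their part in the result was not tested. ψ was lower in siSNRPB2 in all 4 events, and none of the 4 had an exclusion-only read. The 2 events of each exon share that exon and a flanking exon, so their values are not independent. By the median over both events of each exon, both exons would be called lower (-0.185 and -0.205). Of 1846 exons in the series with at least 2 tested events, 21.8% had events whose calls differed.

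**Figure D4:**
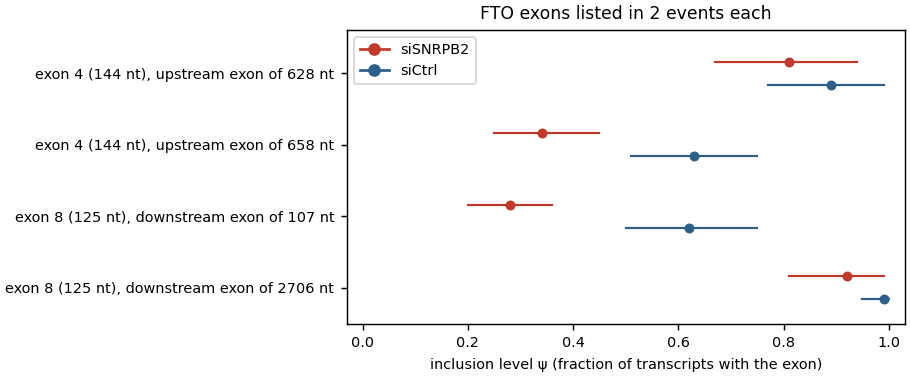
ψ (horizontal axis, fraction of transcripts) of FTO exons 4 (144 nt) and 8 (125 nt) in each of the 2 events that list them, in siSNRPB2 (upper, red) and siCtrl (lower, blue). Points are the authors' deposited values and lines their intervals; for each exon the intervals overlap in one event and lie apart in the other.

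The level of each gene was approximated by the compatible reads of its deepest event, scaled as above. Of the 8 m6A genes with events, 5 were above 0 and 3 below 0 on the log2 scale, with a median log2 ratio of 0.04, against 0.01 over 10368 genes. ZC3H13 was the only one of the 8 past 1.5-fold, with 4.8 RPM (78 reads) in siSNRPB2 and 8.49 (156 reads) in siCtrl, a log2 ratio of -0.81 (95% counting interval -1.23 to -0.42). Over all genes 11.7% were lower and 14.4% higher by at least 1.5-fold. On the same ZC3H13 event 74.1% of reads fitted neither isoform in siSNRPB2 and 55.7% in siCtrl; their part in the result was not tested. VIRMA had 70.0 RPM in siSNRPB2 and 59.6 in siCtrl (log2 ratio 0.23), METTL3 97.4 and 86.7 (0.17), FTO 158 and 147 (0.11), and RBM15 267 and 302 (-0.18). METTL14 (-0.06), YTHDC1 (0.03) and YTHDF2 (0.05) had counting intervals that include 0. The VIRMA value depends on the event, and summed over its 5 events the ratio was 0.00.

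**Figure D5:**
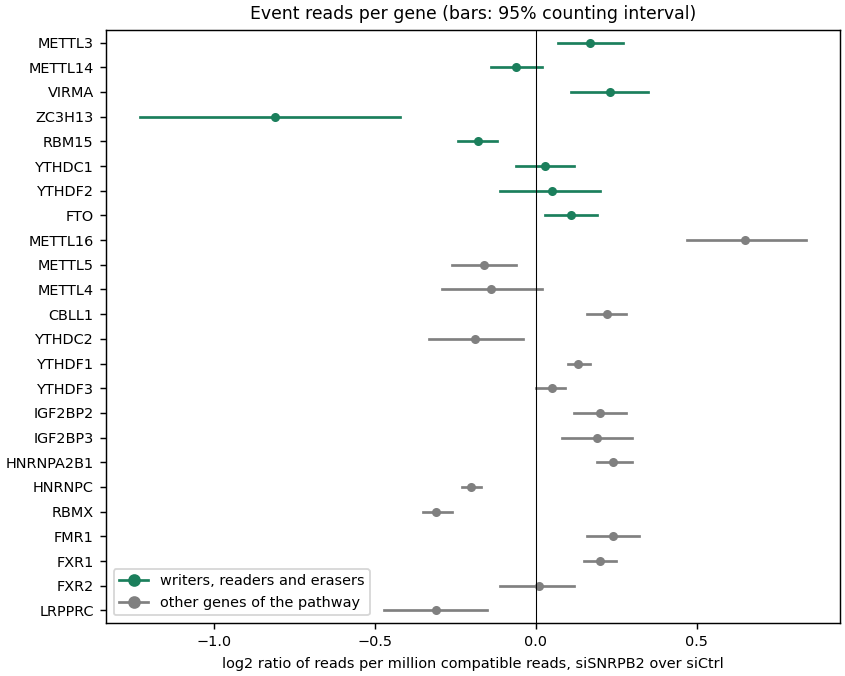
Log2 ratio of event reads in RPM, siSNRPB2 over siCtrl (horizontal axis), for the 8 m6A writers, readers and erasers with events (green) and 16 other genes of the pathway (grey). Points are 1 value per gene and bars the 95% counting interval, which does not cover differences between replicates; ZC3H13, at -0.81, is the lowest.

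In 25 other genes of the pathway, which hold further methyltransferases, adaptors and readers, 59 skipped exons were listed and 50 tested, in 14 genes. Of the 50, 3 were called lower and 1 higher in siSNRPB2, against 7.61% and 7.13% of all tested exons. METTL16, a separate methyltransferase that modifies U6 RNA and a hairpin of the MAT2A mRNA, had 1 exon in each direction. Its 116-nt exon had a ψ of 0.29 (0.21 to 0.40) in siSNRPB2 and 0.85 (0.66 to 0.99) in siCtrl, and its 141-nt exon 0.98 (0.94 to 1.00) in siSNRPB2 and 0.75 (0.60 to 0.90) in siCtrl, with 0 exclusion-only reads at both. METTL16 was also the only one of the 16 measured genes past 1.5-fold by reads, with 34.1 RPM in siSNRPB2 and 21.6 in siCtrl (log2 ratio 0.65, 95% counting interval 0.47 to 0.84). On the event used for that ratio, 65.1% of reads in siSNRPB2 and 69.4% in siCtrl fitted neither isoform, and their part in the result was not tested. A 73-nt exon of CBLL1, which encodes the writer component HAKAI, had a ψ of 0.15 (0.10 to 0.21) in siSNRPB2 and 0.32 (0.25 to 0.40) in siCtrl, on 23 reads for inclusion and 77 for exclusion in siSNRPB2, and 53 and 76 in siCtrl. A 26-nt exon of HNRNPC, a nuclear RNA-binding protein whose access to RNA m6A can alter, had 0.24 (0.20 to 0.28) in siSNRPB2 and 0.40 (0.35 to 0.45) in siCtrl, on 125 reads for inclusion and 29 for exclusion in siSNRPB2, and 230 and 16 in siCtrl; HNRNPC has near-identical gene copies, so its read numbers are uncertain.

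The whole siSNRPB2 file holds 93580246 reads assigned to events and the siCtrl file 100579230, and the tested exons of the m6A genes had a median of 123 informative reads in siSNRPB2 (37 to 900) and 154 in siCtrl (24 to 909). Reads that fit neither isoform made up 51.9% of the reads on m6A gene events in siSNRPB2 and 47.4% in siCtrl, against 61.2% and 59.1% over all events. The level of SNRPB2 itself was not analysed here. Of the markers of the cell line, CD44, a surface marker of mesenchymal breast cancer cells, had 2390 RPM in siSNRPB2 and 2732 in siCtrl, and KRT8, a keratin, 695 and 748. The oestrogen receptor gene ESR1 had 10 compatible reads in siSNRPB2 and 1 in siCtrl, GATA3, a luminal factor, 173 and 353, and the blood cell marker PTPRC 8 and 51. VIM, KRT18, EPCAM, CDH1 and PECAM1 were not analysed here.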

How the data were processed

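Total RNA libraries (4, of 2 groups) were made with a stranded kit for low input, per the labels' protocols. The submitters' processing notes name STAR 2.7 and hg38. The authors deposited ψ, from MISO, as a fraction with an interval, with reads per class and, between the groups, a Bayes factor (a ratio). No source used here gives the MISO version, the level of the interval or how the libraries of a group were joined. Each skipped exon was represented by the event with the most informative reads. Calls were made over all tested exons, and no test of significance was run with 1 value per group. Reads per gene used a pseudocount of 1 and the genes that averaged at least 20 reads.

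The text names every called exon of the m6A genes, the tested exon with the largest ψ difference of each gene, every exon with at least 5 exclusion-only reads in either file, the listed exon with the most reads of a gene without a tested one, the called exons of the other pathway genes, and the 3 exons nearest in ψ to the called exon with the largest difference; further exons of the set were named after their values were seen. Members and lists were chosen with earlier results of these data known. Libraries of a group may be technical replicates. Simulated exons, with Bayes factors set from the known answer, checked only that the code picked events and applied the thresholds. Their ψ was a simple share of reads, so they do not test ψ derived from read density. Splice site sequences need a genome and were not analysed here. The software was matplotlib 3.10.9, scipy 1.17.1, pandas 2.3.3 and numpy 2.4.6 under Python 3.11.15.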

Additional observations from a re-analysis of the deposited data

How the results depend on the processing

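The count of m6A gene exons called higher in siSNRPB2, 2 as reported, was 1 with a ψ difference of at least 0.2 (VIRMA), 1 when 50 informative reads were required (VIRMA) and 1 among exons with an exclusion-only read (METTL14). The VIRMA exon had exactly 50 informative reads in siCtrl, so it met that minimum without a margin. The count called higher stayed at 2 with a Bayes factor of at least 100, at least 10 informative reads, the median over all events of an exon, or both exon ends annotated. The count called lower, 0 as reported, was 1 with at least 10 informative reads (the 97-nt form of METTL3 exon 4) and 2 with the median over all events (FTO exons 4 and 8), and 0 under the other alternatives. With the simple share of inclusion-only reads the difference was 0.48 for METTL14 and 0.00 for VIRMA, where no exclusion-only read was seen. That share is not corrected for length, so the size of its difference is not comparable with that of ψ. The median log2 ratio of reads per gene, 0.04, lay between 0.00 and 0.04 under the alternatives, and that of reads fitting neither isoform to compatible reads, 0.21 with 0.15 over all genes, was 0.06 with all events summed. No paired analysis was possible because the files hold 1 value per event and group; leaving out a library was not possible for the same reason. Few informative reads limit the 97-nt form of METTL3 exon 4, the ZC3H13 exon and the METTL14 exon.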
